A study of Mus musculus with 26 samples.

Results

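Potassium channels are the 94 genes, of 23107 in the deposited table, whose mouse symbol starts with Kcn followed by letters and a number. They were measured in the preoptic hypothalamus of mice aged 55 to 165 days in which a GnRH CRE allele switched on a GFP-tagged ribosomal protein, L10a, from a floxed L10a-GFP allele. All mice in all groups carried both alleles, so the tag marks cells in which the Cre had been active. Translating ribosome affinity purification (TRAP) pulled tagged ribosomes, with the RNA bound to them, out of punches pooled from 5 to 7 mice. Each pool gave an immunoprecipitate, enriched for gonadotropin-releasing hormone (GnRH) neurons, and a supernatant, depleted of them. The 13 pools came from intact females in diestrus (3 pools), ovariectomized females (3), intact males (4) and orchidectomized males (3), which makes 26 libraries in 8 groups. The study asked which transcripts GnRH neurons enrich in each sex and after removal of the gonads.

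Potassium channels let potassium ions leave the cell and so set the resting potential, the shape of each action potential and the spacing of spikes. Pore-forming subunits fall into families that open with voltage (Kv), with intracellular calcium or sodium (Slo and SK), at negative potentials (inward rectifiers, Kir) or at all potentials (the tandem-pore leak channels, K2P). Auxiliary subunits change how a pore opens or where it is placed in the cell, and electrically silent Kv subunits do so by joining the Kv2 pore. GnRH neurons fire in bursts and release the peptide in pulses, and potassium currents are known to shape both.

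The promoters of 3 members that differ strongly between fractions are shown: the highest 2 and, of those averaging at least 1 CPM, the lowest. Each runs from 250 bases before to 50 bases after the start annotated in RefSeq (build GRCm38.p6), from which it was taken. Gene positions given below are from GENCODE, and their starts can differ from those of RefSeq. For Kcnmb2 the GENCODE start, 31902507, lies upstream of the RefSeq start used here. Capitals mark matches on either strand to TAATCC or GGGCGG. The first is among the motifs bound by homeodomain proteins of the Otx type, and the second is the GC box. Kcnmb2 (chr3:31902453-31902752, plus strand) and Kcng4 (chr8:119635631-119635930, minus strand) were higher in the immunoprecipitate, and Kcna3 (chr3:107035912-107036211, plus strand) was lower.
Kcnmb2: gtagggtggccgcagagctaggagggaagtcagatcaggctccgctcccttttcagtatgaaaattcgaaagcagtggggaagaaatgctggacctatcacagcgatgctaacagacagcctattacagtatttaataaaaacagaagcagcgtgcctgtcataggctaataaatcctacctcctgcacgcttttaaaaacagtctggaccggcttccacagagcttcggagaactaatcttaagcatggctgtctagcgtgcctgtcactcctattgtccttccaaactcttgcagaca
Kcng4: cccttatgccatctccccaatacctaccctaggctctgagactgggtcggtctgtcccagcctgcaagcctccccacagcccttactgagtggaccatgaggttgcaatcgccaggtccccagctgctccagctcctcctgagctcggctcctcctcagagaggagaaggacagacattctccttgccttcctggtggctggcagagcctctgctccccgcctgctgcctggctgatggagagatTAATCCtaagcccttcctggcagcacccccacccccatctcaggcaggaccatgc
Kcna3: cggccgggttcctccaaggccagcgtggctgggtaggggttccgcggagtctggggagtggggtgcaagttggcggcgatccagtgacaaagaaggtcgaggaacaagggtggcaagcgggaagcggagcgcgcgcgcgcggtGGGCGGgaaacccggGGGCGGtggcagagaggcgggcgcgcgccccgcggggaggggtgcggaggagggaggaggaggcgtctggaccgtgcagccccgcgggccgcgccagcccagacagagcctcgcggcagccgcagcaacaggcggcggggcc

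The Kcna3 promoter holds 37 CpG dinucleotides and 2 GC boxes at 75% G and C. The Kcng4 promoter holds 4 CpG and the Kcnmb2 promoter 9, against a median of 7 over 32851 promoters of 300 bases in the same table. Kcng4 has 1 match to TAATCC, which 7.06% of all promoters hold, and Kcnmb2 has no match to either motif. GGGCGG occurs in 35.7% of all promoters. It was found in 22 of 44 promoters (24 genes) of members lower in the immunoprecipitate and in 3 of 7 promoters (6 genes) of members higher there. TAATTA and TATAAA, also searched on both strands, were found in none of those 7 promoters and in 0 and 2 of the 44, against 5.29% and 13.6% of all promoters. None of these motifs contains another. A match is a description of the letters in this window and not of a factor bound there.

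Library totals ran from 27217000 to 56669000 counts, and 85 members had enough counts to be tested. The other 9 (Kcna10, Kcna7, Kcne1, Kcnj1, Kcnk15, Kcnk16, Kcnk18, Kcnmb3 and Kcnv2) reached at most 8 counts in any library. The fractions matched their labels for GnRH neurons, with all 5 markers higher in the immunoprecipitate. All 8 oligodendrocyte markers were lower there. Their summed level was still 1185 to 1929 CPM (counts scaled to the size of the library) there against 2176 to 3026 in the supernatant. Of 8 endothelial and mural markers, 3 were higher and 1 lower, with a median log2 fold change of 0.45. Astrocyte, microglia and ependymal or choroid plexus markers had 0 higher and 5 of 7, 4 of 6 and 1 of 4 lower. Immunoprecipitates varied more than supernatants, with a median coefficient of biological variation over tested members of 0.364 against 0.184. In a bulk library, fewer cells of a type and less RNA per cell cannot be told apart. Features of the libraries touch the results. The labels number the libraries, and numbers 1 to 10 hold 4 intact pools only, while all gonadectomized pools are among numbers 11 to 30. The supernatant of intact female replicate 2 had a summed GnRH marker level of 1675 CPM (median 180), the supernatant of intact male replicate 3 the highest blood marker level, 233 CPM, and the immunoprecipitate of gonadectomized male replicate 0 a summed astrocyte marker level of 1999 CPM (median 418). The counts over members are also given without these libraries.

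GnRH neuron immunoprecipitates were relatively poor in potassium channel transcripts, with a few marked exceptions. Of 85 tested members, 8 were higher and 33 lower in the immunoprecipitate than in the supernatant over the 4 conditions (edgeR quasi-likelihood test with Benjamini-Hochberg adjustment over all genes, adjusted p under 0.05). Among all 16713 genes tested, 42.9% passed, 21.3% higher and 21.6% lower. The members' shares were 9.41% higher and 38.8% lower. The median log2 fold change was -0.38 over the members and -0.06 over all genes. Of 5 pan-neuronal markers, 1 was higher and 3 lower, with a median of -0.17, and their summed level was 3708 to 5257 CPM in the immunoprecipitate and 3902 to 5074 in the supernatant. Their part in the members' values was not tested. By at least 2-fold, 4 members were higher and 7 lower, 3 of the latter under 1 CPM, against 3.8% and 5.6% of all genes. The immunoprecipitate was above the supernatant in all 13 pools for 2 members and below it for 6 (Kcna3, Kcnab1, Kcnab2, Kcnc1, Kcnk2 and Kcnma1), against 6.82% and 7.77% of all genes. With 3 libraries that stand apart left out, 6 members were higher and 32 lower. The shares of all genes that passed in this fit and the next are not given here. With the 2 fractions of a pool kept together as a block, 6 were higher and 38 lower, with Kcnk4 and Kcnk6 lost and Kcng3, Kcnj13, Kcnj2, Kcnk13 and Kcnt2 gained.

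**Figure D1:**
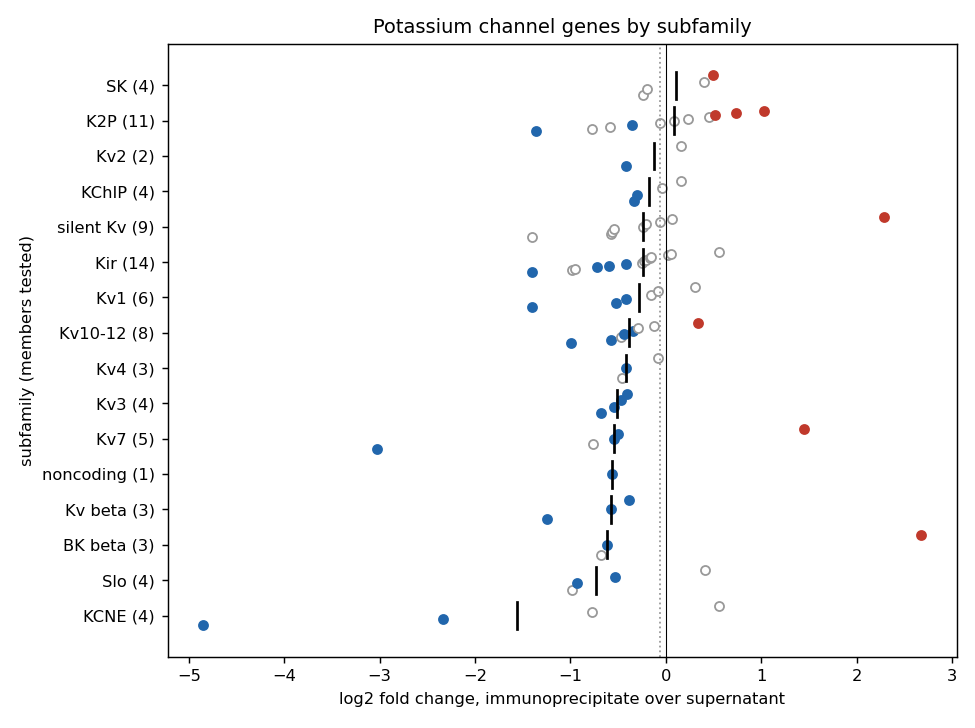
Log2 fold change of each tested member, immunoprecipitate over supernatant, by subfamily, with the number tested in brackets; red points were higher and blue lower (edgeR, adjusted p under 0.05), open points did not pass, black bars are medians and the dotted line is the median of all genes. Kcnmb2 (BK beta) and Kcng4 (silent Kv) are the points farthest to the right, in subfamilies whose other tested members are lower or did not pass.

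The gene with the largest rise was Kcnmb2, a beta subunit that makes calcium-activated BK channels inactivate. It lies at chr3:31902507-32200180 (GENCODE annotation of GRCm38, as for the other genes). Its level was 14.97, 9.84 and 12.77 CPM in the immunoprecipitates of intact females, 25.17, 10.91 and 16.22 in gonadectomized females, 17.09, 15.55, 16.04 and 13.34 in intact males, and 18.71, 13.29 and 18.84 in gonadectomized males. All 13 supernatants lay between 1.96 and 2.91 CPM, so no immunoprecipitate overlapped a supernatant. The difference was 2.68 ± 0.14 (log2, SE, adjusted p = 3.57e-13), a 6.403-fold rise.

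Kcng4 (chr8:119623854-119635680), a silent subunit that alters Kv2 currents, had the same separation. Its immunoprecipitates ran from 13.15 to 34.21 CPM with a median of 20.2, and its supernatants from 2.96 to 5.83 with a median of 4.04. The log2 fold change was 2.29 ± 0.13 (SE, edgeR, adjusted p = 1.22e-12). Kcnmb2 and Kcng4 were the only members whose immunoprecipitates all lay above all supernatants, a pattern shown by 2.15% of all genes. Both stayed past the threshold in each of 36 other settings, 26 of which left out 1 library.

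Kcnk10 (chr12:98429437-98578310), the K2P leak channel TREK-2, had 7.37 ± 3.17 CPM against 3.52 ± 0.633 (SD, n = 13), with 12 of 13 pools higher. Its log2 fold change was 1.03 ± 0.17 (SE, edgeR, adjusted p = 2.72e-05). The fractions overlapped, with immunoprecipitates from 3.13 to 15.42 CPM and supernatants from 2.12 to 4.43. In libraries numbered 1 to 10 alone Kcnk10 did not pass, at 0.56 (adjusted p = 0.277, edgeR).

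Kcnn3, Kcnk6, Kcnk4 and Kcnh6 were higher and closer to the threshold. Kcnn3, the SK3 pore that opens with calcium, rose by 0.49 ± 0.15 (log2, SE, edgeR adjusted p = 0.00933) and was higher in 10 of 13 pools. In libraries numbered 1 to 10 alone it had -0.10 (adjusted p = 0.746), and in numbers 11 to 30 it had 0.75. Kcnk6 (0.74 ± 0.27, adjusted p = 0.031), Kcnk4 (0.52 ± 0.20, adjusted p = 0.0445) and Kcnh6 (0.34 ± 0.13, adjusted p = 0.0324, all edgeR) encode the leak channels TWIK-2 and TRAAK and an ERG-type pore. With the pool as a block, Kcnk6 had 0.58 (adjusted p = 0.107) and Kcnk4 had 0.45 (adjusted p = 0.132). Without the supernatant of intact female replicate 2, Kcnk6, Kcnk4 and Kcnh6 had 0.68, 0.48 and 0.33, and none passed. The calls of Kcnk6, Kcnk4 and Kcnh6 held in 20, 8 and 17 of the 26 fits that left out 1 library. Kcnk4 shares 13.1% of its exonic bases with Catsperz on the same strand, so reads of both genes cannot be told apart there.

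**Figure D2:**
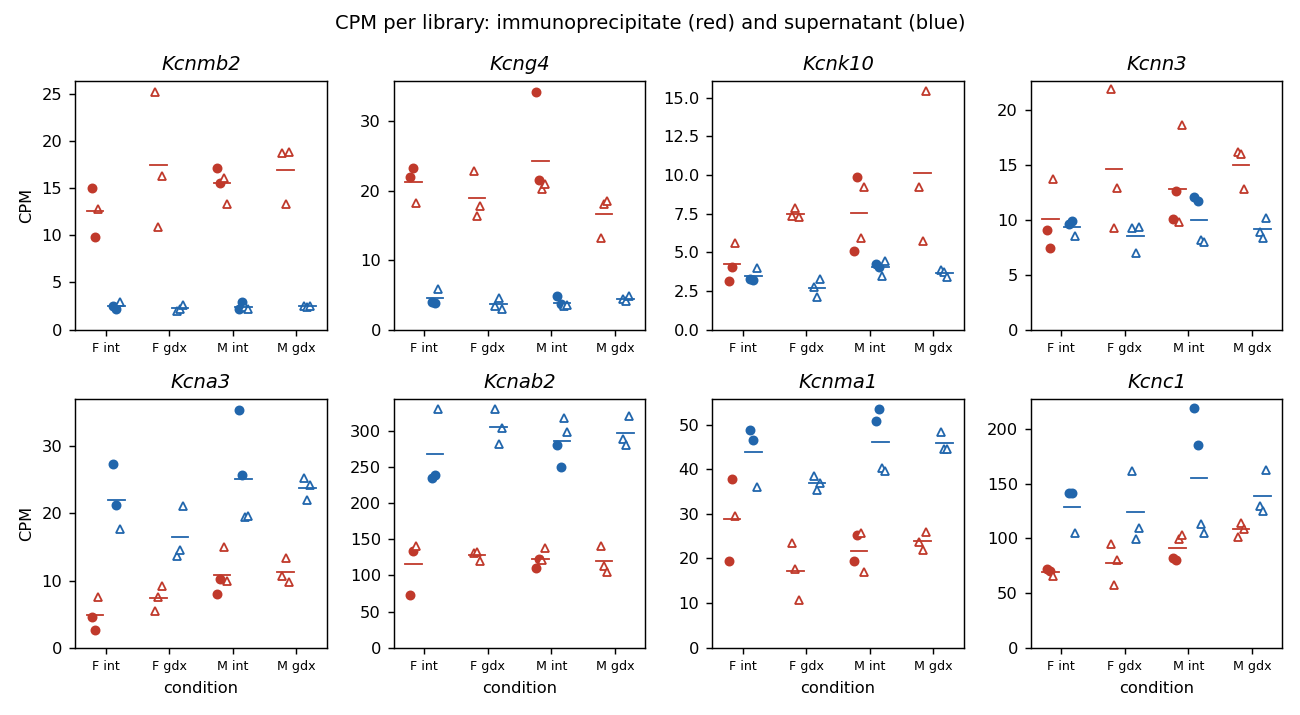
CPM (linear axis from 0) of 8 members in each library by condition (F, female; M, male; int, intact; gdx, gonadectomized), immunoprecipitates in red and supernatants in blue; filled circles are libraries numbered 1 to 10, open triangles 11 to 30, and lines are group means. Kcnmb2 and Kcng4 separate fully upward and Kcnab2 fully downward, while the fractions of Kcnk10, Kcnn3, Kcna3, Kcnma1 and Kcnc1 overlap over all libraries.

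Of 28 voltage-gated pore subunits tested, 2 were higher, Kcnh6 among them, and 16 lower, with a median log2 of -0.43 (21.3% and 21.6% of all genes). Of the Kv3 genes, which encode the fast delayed rectifiers of rapidly firing neurons, Kcnc1 fell by 0.68, Kcnc2 by 0.54 and Kcnc4 by 0.41 on the log2 scale. Kcnc1 (chr7:46396497-46438704) had 86.9 ± 17.9 CPM in the immunoprecipitate and 138 ± 35.7 in the supernatant (SD, n = 13) and was lower in every pool (adjusted p = 3.88e-05, edgeR).

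Among Shaker-type Kv1 genes, Kcna3 (chr3:107036169-107038070), which encodes Kv1.3, fell most. Its level was 4.54, 2.69 and 7.56 CPM in immunoprecipitates of intact females, 5.46, 7.48 and 9.22 in gonadectomized females, 8.01, 10.18, 14.98 and 9.95 in intact males, and 10.70, 13.33 and 9.77 in gonadectomized males. The 13 supernatants ran from 13.6 to 35.4 CPM with a median of 21.2. Each pool was lower in the immunoprecipitate, and across pools only the highest immunoprecipitate, 14.98 CPM, reached into the range of the supernatants. The log2 fold change was -1.40 ± 0.16 (SE, edgeR, adjusted p = 1.55e-07). Kcna1 (-0.42) and Kcna4 (-0.52) were also lower, whereas Kcna2 (-0.08), Kcna5 (0.30) and Kcna6 (-0.15) did not pass. Kcna1 had -1.01 in libraries numbered 1 to 10 alone and -0.18 in numbers 11 to 30, and Kcna4 had -1.06 and -0.33.

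Kv2 and Kv4 genes, which carry most delayed rectifier and A-type current in many neurons, were mixed. Kcnb2 (-0.42) and Kcnd2 (-0.42) were lower, and Kcnd1 (-0.46) and Kcnd3 (-0.08) did not pass. With offsets that take out each library's trend of CPM on exonic length, Kcnb2 had -0.21 (adjusted p = 0.173, edgeR) and was no longer called, and the calls of Kcnh6, Kcnj3 and Kcnj6 also ended.

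In the Kv7 family, whose pores carry M-type current, Kcnq5 (-0.50) was lower and Kcnq3 (-0.76) did not pass. Kcnq1 was lower (-3.03) at under 1 CPM in both fractions, with 0.223 ± 0.500 CPM in the immunoprecipitate and 0.441 ± 0.361 in the supernatant (SD, n = 13). Of 8 EAG, ERG and ELK genes (Kcnh), 1 was higher, Kcnh6, and 4 were lower, against 21.3% and 21.6% of all genes. The lower ones were Kcnh5 (-0.997, adjusted p = 0.0479), Kcnh3 (-0.58, adjusted p = 0.0233), Kcnh1 (-0.43) and Kcnh2 (-0.35, edgeR). The calls of Kcnh5 and Kcnh2 held in 10 and 14 of the 26 fits that left out 1 library. With the length offsets Kcnh1 had -0.28 (adjusted p = 0.084), Kcnh2 -0.29 (0.086) and Kcnq5 -0.35 (0.0619), and their calls ended.

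Among the silent subunits Kcng4 alone was called by edgeR. None of the other 8 tested passed in that fit, with log2 values from -1.41 for Kcng3, at under 1 CPM, to 0.06 for Kcng2. With the pool as a block Kcng3 was also called, lower (-3.13, adjusted p = 0.032), and limma voom called Kcng1, Kcng3, Kcns1 and Kcnv1 lower (adjusted p = 0.0162, 0.00106, 0.0349 and 0.0194).

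Auxiliary subunits had 1 member higher, Kcnmb2, and 8 lower of 14 tested (21.3% and 21.6% of all genes). All 3 cytoplasmic beta subunits of Kv1 channels fell. Kcnab2 (chr4:152390742-152477871) had 122 ± 18.6 CPM in the immunoprecipitate and 289 ± 32.6 in the supernatant (SD, n = 13). Its immunoprecipitates, 72.7 to 141 CPM, all lay below its supernatants, 234 to 331 CPM, which held for 2.4% of all genes and for no other member. The log2 fold change was -1.25 ± 0.09 (SE, edgeR, adjusted p = 7.76e-11), against -0.58 for Kcnab1 and -0.38 for Kcnab3. The KChIP genes, calcium-binding partners of Kv4, had small differences: Kcnip3 (-0.33) and Kcnip4 (-0.31) were lower, and Kcnip1 (-0.04) and Kcnip2 (0.16) did not pass. In the KCNE family of small membrane-spanning subunits, Kcne2 and Kcne3 were called lower at under 1 CPM in both fractions. Their calls held in 24 and 9 of the 26 fits that left out 1 library. DESeq2 did not call Kcne3 (adjusted p = 0.0674). Kcne1l, the highest per kilobase, had 3.79 ± 1.99 against 6.38 ± 1.97 CPM (SD, n = 13) and did not pass (-0.77, adjusted p = 0.0508, edgeR).

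The BK channel had its parts on both sides. Kcnma1 (chr14:23289431-24014491), the BK pore, had 22.8 ± 6.63 CPM against 43.4 ± 6.02 (SD, n = 13) and was lower in all 13 pools (log2 -0.93, adjusted p = 1.04e-06, edgeR). Kcnmb4, a beta subunit found widely in neurons, was lower in 12 of 13 pools at 30.7 ± 5.73 against 46.7 ± 7.75 CPM (SD, n = 13). Its log2 fold change was -0.62 ± 0.09 (SE, edgeR, adjusted p = 9.77e-06). In libraries numbered 1 to 10 alone Kcnmb4 had -0.23 and did not pass (adjusted p = 0.181, edgeR), and in numbers 11 to 30 it had -0.76. Per kilobase of exon, Kcnmb4 still exceeded Kcnmb2 in the immunoprecipitate, 9.24 against 4.99 CPM per kilobase, while in the supernatant the levels were 14.1 and 0.772. Opposite-strand transcripts share up to 20.8% of the exonic bases of Kcnmb4. Among the other Slo and SK genes, Kcnt1, a sodium-activated pore, was lower (-0.53), and Kcnt2 (-0.99), Kcnu1 (0.41), Kcnn1 (-0.20), Kcnn2 (-0.24) and Kcnn4 (0.40) did not pass. With the pool as a block Kcnt2 was called lower (-1.74, adjusted p = 0.0257, edgeR).

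Inward rectifiers had no member higher and 4 lower of 14 tested, a share of lower members near the 21.6% of all genes. Kcnj3 (-0.73, adjusted p = 0.0482) and Kcnj6 (-0.60, adjusted p = 0.0433, edgeR) encode subunits of the G protein-gated GIRK channels; their calls held in 7 and 9 of 26 fits that left out 1 library, and an opposite-strand transcript shares 31.1% of the exonic bases of Kcnj3. Their partner Kcnj9, the Kir gene with the highest level per kilobase in the immunoprecipitate, had -0.16 and did not pass. Kcnj16, a Kir subunit of glia among other cells, was lower (-1.40 ± 0.42, SE, edgeR, adjusted p = 0.0086) at 2.59 ± 2.52 against 6.59 ± 1.78 CPM (SD, n = 13). Its partner Kcnj10, the main Kir pore of astrocytes, did not pass (-0.21), and its highest immunoprecipitate value, 29.7 CPM, was that of gonadectomized male replicate 0, where the astrocyte marker sum was also highest. Without that library Kcnj10 had -0.36 (adjusted p = 0.285, edgeR). Of 7 astrocyte markers, 5 were lower in the immunoprecipitate and none was at 0 in all libraries. Their part in the Kir values was not tested. The KATP pore genes Kcnj11 (0.06) and Kcnj8 (0.56) did not pass. Neither did the KATP regulatory subunit genes Abcc8 (-0.20) and Abcc9 (-0.20, at a mean under 1 CPM in both fractions).

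Of 11 K2P leak channel genes tested, 3 were higher and 2 lower, against 21.3% and 21.6% of all genes. Their median log2 was 0.08, which was -0.07 with the length offsets and -0.12 in libraries numbered 1 to 10 alone. Kcnk10, Kcnk6 and Kcnk4 were higher, and Kcnk9 (TASK-3; -1.36 ± 0.40, SE, edgeR, adjusted p = 0.00826) and Kcnk2 (TREK-1; -0.35) were lower. Kcnk2 and Kcnk10 are close relatives with opposite signs, at 45.0 against 57.3 CPM and 7.37 against 3.52 CPM. Kcnk1, the K2P gene with the highest level per kilobase, had 53.5 ± 10.02 CPM against 50.2 ± 7.79 (SD, n = 13, log2 0.08) and did not pass. Kcnq1ot1, an antisense noncoding RNA of the Kcnq1 locus that also met the naming rule, was lower (-0.57, adjusted p = 0.0132, edgeR). With the length offsets it had -0.11 (adjusted p = 0.647), and with the pool as a block besides -0.14 (adjusted p = 0.158).

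Levels of different genes were compared per kilobase of exon. In the immunoprecipitate the highest were Kcnip4 (35.8 CPM per kilobase), Kcnip1 (28.97), Kcnk1 (23.955) and Kcnab2 (21.8). In the supernatant Kcnab2 came first at 51.8. Kcnmb2 was 62nd in the supernatant and 28th in the immunoprecipitate, and Kcng4 54th and 23rd. Summed over the coding members, the level was 406 ± 33.8 CPM per kilobase in the immunoprecipitate and 499 ± 28.8 in the supernatant (SD, n = 13), lower in all 13 pools.

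The subfamilies shared that sum differently. Kv beta genes made up 11.7% ± 1.76 of it in the immunoprecipitate and 17.6% ± 2.48 in the supernatant (SD, n = 13), lower in every pool. K2P genes made up 13.6% ± 1.87 and 10.8% ± 0.801, higher in every pool. Their own summed level was nearly equal in the fractions, 54.9 and 54.1 CPM per kilobase, so the larger share went with the smaller total. Silent subunits made up 5.68% ± 0.630 and 4.12% ± 0.222, higher in every pool, with Kcng4 contributing 5.399 CPM per kilobase of 23.03 in the immunoprecipitate and 1.08 of 20.6 in the supernatant.

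**Figure D3:**
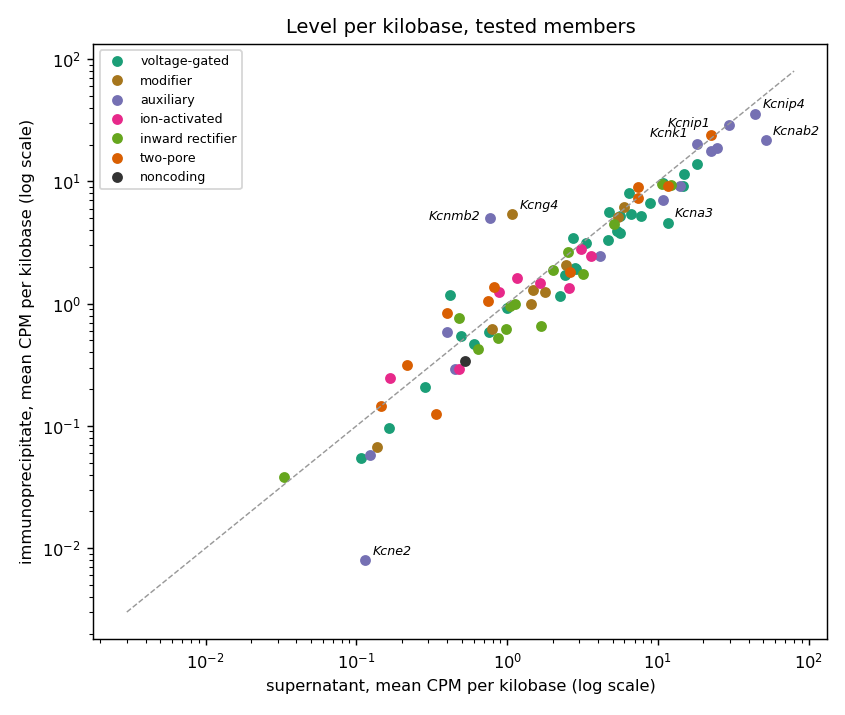
Mean level per kilobase of exon of each tested member in the supernatant (x) and immunoprecipitate (y), both in CPM per kilobase on log axes, n = 13 libraries each, coloured by class; the dashed line marks equal levels. Most points lie near or below the line, Kcnmb2 and Kcng4 lie above it and Kcna3, Kcnab2 and Kcne2 below.

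Of 32 listed genes whose proteins assemble with or regulate potassium channels, 30 were tested, 3 were higher and 12 lower, with a median log2 of -0.24. Over all genes 21.3% were higher and 21.6% lower, with a median of -0.06. Cntnap2 (0.32), which helps place Kv1 channels along axons, and the calmodulin gene Calm2 (0.28) rose, while the calmodulin gene Calm3 fell by 0.41. Amigo1, a Kv2 partner, fell by 0.74, the scaffold gene Dlg4 by 0.78, the GABA-B receptor genes Gabbr1 and Gabbr2 by 0.84 and 0.56, and Vapb, which binds Kv2 at contacts with the endoplasmic reticulum, by 1.25 (log2). The Kv4 partners Dpp6 (-0.09) and Dpp10 (0.06) did not pass.

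The depletion of members was larger in the libraries numbered 1 to 10. The summed GnRH marker level of the immunoprecipitates went with the same split, at 17248 to 21355 CPM in the 4 pools numbered 1 to 10 and 3400 to 9144 in the 9 others, with no overlap. Its part in the members' values was not tested. In those alone, 5 members were higher and 26 lower (19.1% and 18.2% of all genes), with a median log2 of -0.73 against -0.14 over all genes. In numbers 11 to 30 alone, 7 were higher and 14 lower (13.5% and 13% of all genes), with a median of -0.24 against -0.05. The value was lower in numbers 1 to 10 for 65 of 85 members and had the opposite sign for 18. Among members called lower over all libraries, Kcnb2 had -0.99 in numbers 1 to 10 and -0.21 in 11 to 30. Kcnd2 had -0.94 and -0.22, Kcnh1 -0.83 and -0.24, and Kcnc2 -0.83 and -0.42. Kcnc4 had -0.63 and -0.30, and Kcnk2 -0.50 and -0.22. Members that went the other way included Kcnab2 (-1.14 and -1.26) and Kcnmb4 (-0.23 and -0.76). In the intact pools, where both numberings occur, the difference in enrichment itself passed for 4 members, all higher in numbers 11 to 30. Among these were Kcna2 (0.94, adjusted p = 0.0312) and Kcnc1 (0.76, adjusted p = 0.00655, edgeR). Over all genes, 3.02% passed in that direction and 5.86% in the other.

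**Figure D4:**
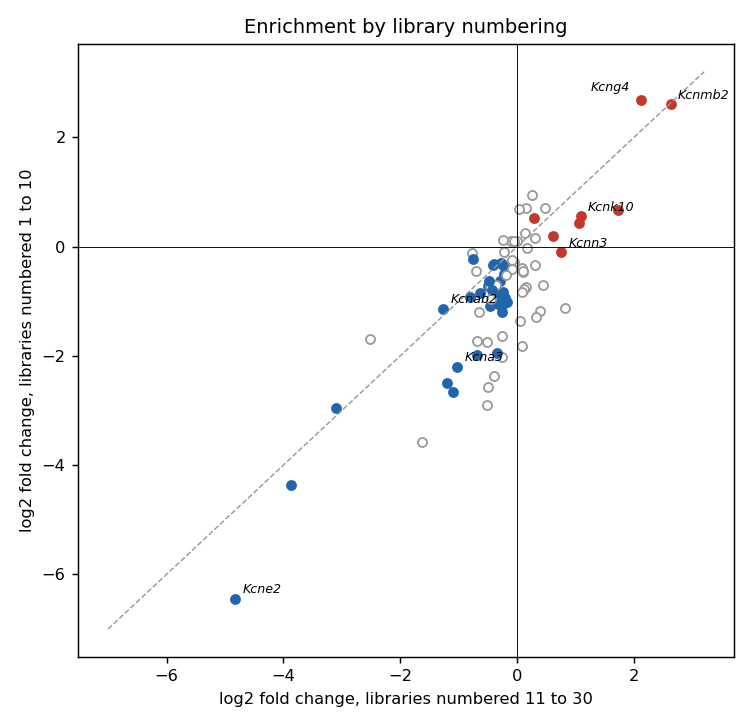
Log2 fold change, immunoprecipitate over supernatant, of each of 85 members in libraries numbered 11 to 30 (x) and 1 to 10 (y); red and blue points were higher and lower over all libraries, open points did not pass, and the dashed line marks equal values. Of the points, 65 lie below the line, while Kcnmb2 and Kcnab2 lie close to it.

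Within single conditions the count of members past the threshold followed the count over all genes. In intact females 11 passed, when 18% of all genes did; 2 were higher and 9 lower, against 10.2% and 7.77%. In gonadectomized females 7 passed (6.28% of all genes), 3 higher and 4 lower, against 2.97% and 3.31%. In intact males 18 passed (25.9% of all genes), 4 higher and 14 lower, against 14.6% and 11.2%. In gonadectomized males 10 passed (10.7% of all genes), 5 in each direction, against 5.93% and 4.73%. Kcnmb2 and Kcng4 were higher, and Kcna3 and Kcnab2 lower, in each of the 4 conditions. Kcnab2 had nearly equal values: -1.22 and -1.22 in intact females and males, and -1.25 and -1.31 after gonadectomy. Kcnk10 had 0.30 and 0.89 in the intact sexes and 1.46 in both gonadectomized ones. Of the 41 members called over all conditions, 36 had the same sign in all 4. The calls rest on the mean of these same 4 values, so this count is no separate evidence of agreement.

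**Figure D5:**
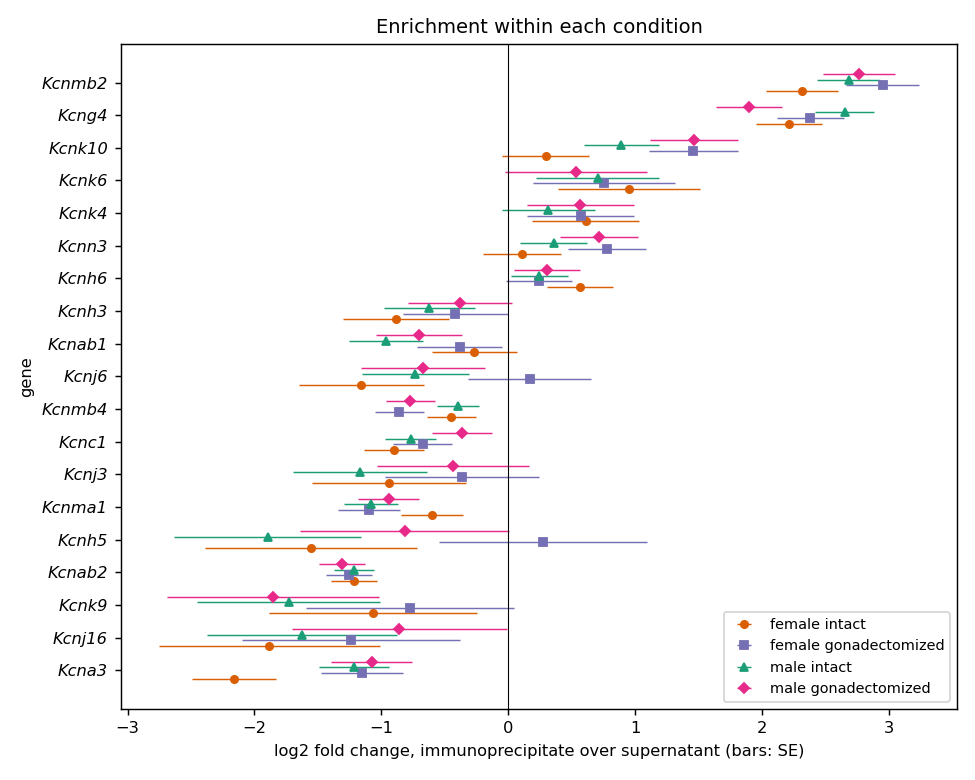
Log2 fold change, immunoprecipitate over supernatant, with SE, of named members in each of the 4 conditions (3 pools each, 4 for intact males). Kcnmb2 lies between 2.32 and 2.95 and Kcnab2 between -1.31 and -1.22, while Kcnh5 and Kcnj6 have a value above 0 in gonadectomized females only.

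No member passed a test of a difference in enrichment between conditions. The 4 tests of a difference, by gonadectomy in each sex and by sex in intact and in gonadectomized mice, called 0 of 85 members with edgeR, and DESeq2 and limma voom also called 0. Of all genes, 0.0%, 0.0%, 0.00598% and 0.0% passed in these tests. At an unadjusted p under 0.05 there were 4, 7, 6 and 6 members, and 7.47%, 8.16%, 4.43% and 5.27% of all genes. Among the lowest p values were those of Kcnb2 (difference 1.31) and Kcnk10 (1.16) for gonadectomy in females (adjusted p = 0.664), of Kcne2 (5.22, under 1 CPM) for gonadectomy in males (0.593), of Kcnh8 (2.81, 0.983) and Kcnk7 (-5.12, 1.00, under 1 CPM) for sex in intact mice, and of Kcnk3 (0.94) and Kcnq1 (6.34, under 1 CPM) for sex in gonadectomized mice (0.867).

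Kcnh8, an ELK-type pore, did not pass with all libraries (adjusted p = 0.983 for sex in intact mice, edgeR) and was called once a library was left out. Its immunoprecipitates had 0.21, 0.00 and 1.92 CPM in intact females, 1.01, 0.98 and 1.43 in gonadectomized females, 4.64, 5.82, 4.74 and 3.54 in intact males, and 1.14, 2.47 and 4.58 in gonadectomized males. Intact males and intact females did not overlap there, whereas their supernatants did. The share of all genes with such a separation is not given here. Without the immunoprecipitate of intact female replicate 2 the difference by sex in intact mice was 5.53 (adjusted p = 0.00952, edgeR). That by gonadectomy in females was 4.06 (adjusted p = 0.0461, edgeR). Of all genes, 0.558% and 1.74% passed in these fits. The library left out held the highest intact female value and is the only intact female immunoprecipitate outside numbers 1 to 10. Without it, all intact female immunoprecipitates are numbered 1 to 10 and all gonadectomized ones 11 to 30. Numbering and gonadectomy cannot be told apart there. Over intact pools Kcnh8 had -1.89 in numbers 1 to 10 and 0.32 in 11 to 30 (difference adjusted p = 0.236, edgeR).

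Levels compared within a fraction gave no member called by edgeR. In the immunoprecipitate, edgeR called 0 of 81 tested members for gonadectomy in females, gonadectomy in males, sex in intact and sex in gonadectomized mice, with 3, 5, 7 and 8 at an unadjusted p under 0.05, as had 3.66%, 9.34%, 4.11% and 8.59% of all genes. After adjustment 0.0%, 0.0%, 0.0248% and 0.0186% of all genes passed, and DESeq2 and limma voom called 0 members in each. Kcnk3, the TASK-1 leak channel, had the lowest p in both comparisons that involve gonadectomized males. Kcnk3 had 33.7, 54.2 and 50.2 CPM in gonadectomized males, 22.2 to 27.8 in intact males and 17.99, 21.7 and 32.0 in gonadectomized females, so the gonadectomized males lay above both other groups. The share of all genes that separate in this way is not given here. The log2 differences of Kcnk3 were 0.85 and 0.95 (adjusted p = 0.525 and 0.551, edgeR). In intact mice the lowest p values between the sexes were those of Kcna3 (1.13) and Kcnh2 (0.81, adjusted p = 0.991), and for gonadectomy in females those of Kcnb2 (1.02) and Kcnma1 (-0.74, adjusted p = 0.994).

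In the supernatant, 0 of 85 members were called by edgeR in the same 4 comparisons, with 6, 0, 3 and 17 at an unadjusted p under 0.05, as had 7.31%, 2.73%, 3.71% and 21.1% of all genes. After adjustment 0.0122%, 0.0%, 0.0428% and 0.0428% of all genes passed. Limma voom called 0 members in each, and DESeq2 called 3 for sex in gonadectomized mice and 0 in the others. The lowest p values were those of Kcns2 (-0.60) and Kcne1l (0.74) for gonadectomy in females (adjusted p = 0.653), Kcnj6 (-0.41) and Kcnq1ot1 (-0.62) for gonadectomy in males (1.00), and Kcnj14 (0.62) and Kcna2 (0.31) for sex in intact mice (0.861).

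Male against female gonadectomized supernatants came closest to the threshold. Of 85 members, 17 had an unadjusted p under 0.05, a share near the 21.1% of all genes. Of these 17, 15 were higher in males, but the share of all genes by direction is not given here. The median log2 was 0.21 over the members and 0.005 over all genes. Kcnd2, an A-type Kv4 pore, had 53.5, 54.9 and 47.3 CPM in males and 31.5, 33.4 and 38.7 in females, which did not overlap (0.57, adjusted p = 0.108, edgeR). How large a share of all genes lacks overlap in this comparison is not given here. Kcnc2 had 48.8, 46.1 and 48.8 CPM against 20.02, 30.3 and 41.0 (0.64, adjusted p = 0.109, edgeR). DESeq2 called Kcnd2, Kcnc2 and Kcns2, when it called 8.9% of all genes. With a term for the library numbering, edgeR called Kcnd2 and Kcnh2 (6.6% of all genes), and in libraries numbered 11 to 30 alone Kcnd2 (1.6%). Without the supernatant of gonadectomized female replicate 2, edgeR called 10 members, 9 higher in males, and 17.5% of all genes. Leaving out the same library gave 3 called members, Kcnj3 (-0.95), Kcns2 (-0.83) and Kcnk9 (-1.62), for gonadectomy in females, and 3.05% of all genes. The comparisons of gonadectomized with intact mice share pools with those between the sexes, and gonadectomized pools are all numbered 11 to 30.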

How the data were processed

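RNA of both fractions was made into libraries with a SMART-Seq kit that does not mark strand, per the labels' protocols. The authors deposited estimated counts per gene, on build mm10 with Cuffdiff 2.1.1, Cufflinks, TopHat2 2.0.9 and Bowtie2 2.1.0 among the tools, per the submitters' processing notes. The sources used here do not give the annotation or how reads with several matches were counted. Every column belongs to 1 library. Estimated counts were rounded and tested with edgeR 4.0.16 (R 4.3.3; TMM, filterByExpr at 10 counts and a total of 15, quasi-likelihood test, Benjamini-Hochberg adjustment over all genes, threshold 0.05). Enrichment is the mean over 4 conditions in 1 fit of 26 libraries; comparisons of conditions were fitted on the 13 libraries of a fraction. The deposited counts were normalised to TMM-scaled CPM, and levels per kilobase use exonic lengths of GENCODE M21 (GRCm38), matched for all 94 members. DESeq2 1.42.0 and limma 3.58.1 were alternatives. Simulated counts, drawn without pairing of the fractions of a pool or a shift by library numbering, were also run through the same test. They cannot show how the fits handle those features.

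Replicates are separate pools. The labels give 2 RNAs per pool, and deviations of the fractions of a pool from their group means correlated at 0.0141 to 0.150 over 13 pools, so the pool was used as a block in an alternative. Replicate numbers of different conditions only name samples. No replicates agreed within sampling noise (lowest chi-square per degree of freedom 4.53). Members, lists and comparisons were chosen with earlier results of these data known. Full values were given for up to 12 called members per direction of at least 1 CPM, ranked by fold change, the member with the highest level per kilobase of each subfamily, and, where none was called, the 2 members with the lowest p; Kcnh8 and others named for a call under an alternative were chosen after their values were seen. Values of some members and listed genes are not reported here, although the counts over members include them.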

Additional observations from a re-analysis of the deposited data

Results flagged for a closer look

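Within groups of 4 pools, 4 of 68 tests found a library far from the others by Dixon's criterion, and chance alone gives about 1 in 20. In intact males, Kcng4 was high in both fractions of replicate 0, at 34.2 CPM in the immunoprecipitate and 4.79 in the supernatant. Kcnj16 was high in the immunoprecipitate of replicate 1 at 6.27 CPM, and Kcnk6 in that of replicate 2 at 9.23 CPM.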

How the results depend on the processing

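Over all conditions, 8 members were higher and 33 lower. With libraries numbered 1 to 10 alone 5 were higher, and with numbers 11 to 30 alone 14 were lower; these fits also hold fewer pools. Kcnn3 reversed to -0.10 in numbers 1 to 10 alone. Leaving out 1 library gave 5 to 9 higher and 27 to 36 lower, and 5 of the 8 higher and 25 of the 33 lower members kept their call in all 26 such fits. The lowest count of higher members, 5, came without the supernatant of intact female replicate 2. Over all 36 settings, 2 higher members (Kcnmb2, Kcng4) and 8 lower ones kept it (among them Kcna3, Kcnab1, Kcnab2, Kcnc1, Kcnj16, Kcnk9, Kcnma1). The replicate block for the pool gave 6 higher and 38 lower members, losing Kcnk4 and Kcnk6. Length-trend offsets gave 8 higher and 30 lower, losing 8 calls, and with the block 6 and 36. The shares of all genes that passed in the leave-out, block and offset fits are not given here.

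Within intact females (11 members) limma voom called 19, numbers 11 to 30 alone, with 1 pool, called 1, and leaving out 1 library gave 6 to 16. Within intact males (18) numbers 11 to 30 alone called 5, and leaving out 1 library gave 11 to 24, the lowest without the supernatant of replicate 0. Within gonadectomized males (10) leaving out 1 library gave 6 to 11. The shares of all genes that passed in these alternative fits within a condition are not given here.

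For differences in enrichment by gonadectomy in females and by sex in intact mice, leaving out 1 library gave 0 to 1 members. In supernatants, leaving out 1 library gave 0 to 3 members for gonadectomy in females and 0 to 10 for sex in gonadectomized mice; for the latter DESeq2 called 3, a term for the library numbering 2 (Kcnd2 and Kcnh2) and numbers 11 to 30 alone 1 (Kcnd2). The cause of these changes was not tested. The replicate block by number left all 8 comparisons within a fraction at 0.

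Members under 1 CPM have few counts, and their fold changes depend on the prior count. Genes with antisense or overlapping partners are uncertain because the kit does not mark strand.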
